A study of Mus musculus with 6 samples.

Results

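The 39 Hox genes of the mouse were followed in primary MEFs, the embryonic fibroblasts that grow out when embryo tissue is put into culture. They are every gene of the expression table whose symbol is Hoxa, Hoxb, Hoxc or Hoxd with a number, 39 of 26898 genes. They lie in 4 clusters, HoxA with 11 genes on chromosome 6, HoxB with 10 on chromosome 11, HoxC with 9 on chromosome 15 and HoxD with 9 on chromosome 2 (genome build mm10). The study sequenced RNA of MEFs from E12.5 embryos to ask how KANSL1 affects the expression of genes linked to autophagy. KANSL1 belongs to the NSL complex, a histone acetyltransferase complex. The WT cells were Kansl1 fl/fl, and the KO cells were Kansl1 fl/fl/CAG-cre, with a Cre recombinase driven by the broadly active CAG promoter and switched on by tamoxifen. Cells of both groups had received 1 μM tamoxifen for 48 h, so effects of Cre and of Kansl1 loss cannot be told apart, and Cre-positive cells with intact Kansl1 were not analysed here. The libraries are WT 4, WT 5 and WT 8 and KO 3, KO 7 and KO 10, each from a different mouse per the methods of the study, which gives n = 3 in each group.

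Hox genes encode transcription factors that bind DNA through a homeodomain, and they give cells of the embryo their position along the head to tail axis and along the limbs. Within a cluster, genes with low paralogue numbers lie at the 3′ end and act in anterior regions, whereas genes with high numbers lie at the 5′ end and act in posterior regions and in the outer parts of the limbs. Fibroblasts are known to keep the Hox pattern of the site they came from after they are placed in culture, and Polycomb proteins are known to hold the unused part of each cluster silent.

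Expression was read in TPM, which divides the reads of a gene by its length, so levels can be compared between genes. The libraries held between 17655495 (KO 3) and 27718259 (KO 7) reads assigned to genes, recovered from the TPM steps. Kansl1 (chr11:104333229-104468861) was examined first. Its level was 28.5, 26.7 and 24.4 TPM in WT and 13.7, 15.8 and 14.4 TPM in KO, which is 55.1% of the WT mean. The groups did not overlap, and the log2 fold change of -0.82 (SE 0.11) passed the test (adjusted p = 0.000859 by limma), so the labels and the targeted gene match but RNA of the gene remained in the KO cells. Fold changes throughout are KO over WT and were computed on log2(TPM + 1), which makes the changes of low genes look smaller than they are. In bulk RNA, a change in the number of cells that express a gene and a change in the level per cell cannot be told apart.

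2 Hox genes, Hoxc12 and Hoxc13, passed both thresholds of the study (0.005 for the adjusted p-value and 0.5 for the size of the log2 fold change), and both were higher in KO. Hoxc13 is known for its part in hair and nail formation, and Hoxc12 is its neighbour at the 5′ end of the HoxC cluster. Of the 39 Hox genes, 31 reached a mean of 1 TPM in either group and were tested. Among these, 2 were called higher and 0 lower, while 1.64% of all 14799 tested genes were called higher and 9.03% lower. With 0.05 as the limit for the unadjusted p, 5 Hox genes were higher and 5 lower in limma, and the voom method on recovered reads called 1 Hox gene higher (Hoxc13) and 0 lower. Over all tested genes, 12.2% were higher and 27.2% lower at that unadjusted limit, and voom called 4.34% higher and 12.2% lower. Both called genes passed the 1 TPM filter only through KO, where they were high, so their count rests in part on that filter.

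The homeobox of both genes, the 180 bases that encode the homeodomain, is shown because the changed genes are told from their paralogues by sequence. The sequences run 5′ to 3′ on the plus strand and are the coding sequence of GENCODE M21 transcripts, at chr15:102938308-102938487 for Hoxc12 and chr15:102927210-102927389 for Hoxc13. Capitals mark 18 bases that encode the conserved core of the DNA recognition helix.
Hoxc12 homeobox: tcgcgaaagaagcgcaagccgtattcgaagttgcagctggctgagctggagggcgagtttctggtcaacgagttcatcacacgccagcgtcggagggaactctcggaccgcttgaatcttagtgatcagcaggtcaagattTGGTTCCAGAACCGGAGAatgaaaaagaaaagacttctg
Hoxc13 homeobox: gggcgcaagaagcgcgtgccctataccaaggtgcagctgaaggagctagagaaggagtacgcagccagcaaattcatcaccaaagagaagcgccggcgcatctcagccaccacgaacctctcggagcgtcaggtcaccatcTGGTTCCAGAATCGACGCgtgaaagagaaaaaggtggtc
The homeobox of Hoxc12 matched that of Hoxd12 at 71.7% of bases and that of its neighbour Hoxc13 at 62.2%. The homeobox of Hoxc13 matched those of Hoxa13, Hoxb13 and Hoxd13 at 77.2%, 73.9% and 75.0% of bases. The longest run of bases that a transcript of Hoxc12 shared with any other Hox gene was 18 bases (with Hoxd10), and for Hoxc13 it was 21 bases (with Hoxd4). Neither gene shared exon bases with another annotated gene. With microRNA genes left out of the count, this was true of 24 of the 39 Hox genes. Hoxa9, counted among the 24, shares 85 exon bases with the microRNA gene Mir196b. The other 15 shared exon bases with another gene, 10 of them with a gene on the opposite strand. Since the library kit does not mark strand, reads of such partners cannot be told apart.

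Hoxc13 (ENSMUSG00000001655.6, chr15:102921103-102928814) was at 0.953, 0.602 and 0.686 TPM in WT 4, WT 5 and WT 8 and at 4.81, 3.19 and 4.19 TPM in KO 3, KO 7 and KO 10. All KO libraries were above all WT libraries, and the gap between the groups exceeded the range within either. These levels rest on 19, 13 and 16 reads in WT and on 86, 76 and 92 reads in KO. The KO mean was 4.06 ± 0.816 TPM (SD, n = 3) against 0.747 ± 0.183 TPM in WT, a 5.44-fold difference. The log2 fold change was 1.53 (SE 0.19, 95% confidence interval 1.11 to 1.95, adjusted p = 0.000591 by limma). Its size was 2.30 at a pseudocount of 0.1 and 2.47 with voom. The gene stayed past the thresholds under 9 of 10 other settings, with adjusted p between 0.000655 and 0.0057. The exception was the fit of all genes with no filter on low levels, where the adjusted p of 0.0057 missed the threshold.

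Hoxc12 (ENSMUSG00000050328.2, chr15:102936757-102938609) was at 0.359, 0 and 1.13 TPM in WT 4, WT 5 and WT 8 and at 6.40, 2.90 and 3.04 TPM in KO 3, KO 7 and KO 10. KO 3 was the highest library, and the groups did not overlap. The reads behind these levels were 3, 0 and 11 in WT and 48, 29 and 28 in KO, and the count of 0 in WT 5 allows up to 0.332 TPM. The log2 fold change was 1.78 (SE 0.33, 95% confidence interval 1.05 to 2.51, adjusted p = 0.00365 by limma). Its size depends on the setting, with 3.36 at a pseudocount of 0.1 and 3.72 with voom, where the adjusted p missed the threshold. Over the 10 other settings the adjusted p lay between 0.00305 and 0.0235, and 2 of them kept the gene past the threshold. It was lost without WT 4 (adjusted p = 0.00813), without WT 5 (0.00686), without KO 3 (0.0169) and without KO 7 (0.00772), where the log2 fold change was 1.75, 1.52, 1.48 and 1.94.

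Next, the level of every Hox gene was set against its place in its cluster.

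**Figure D1:**
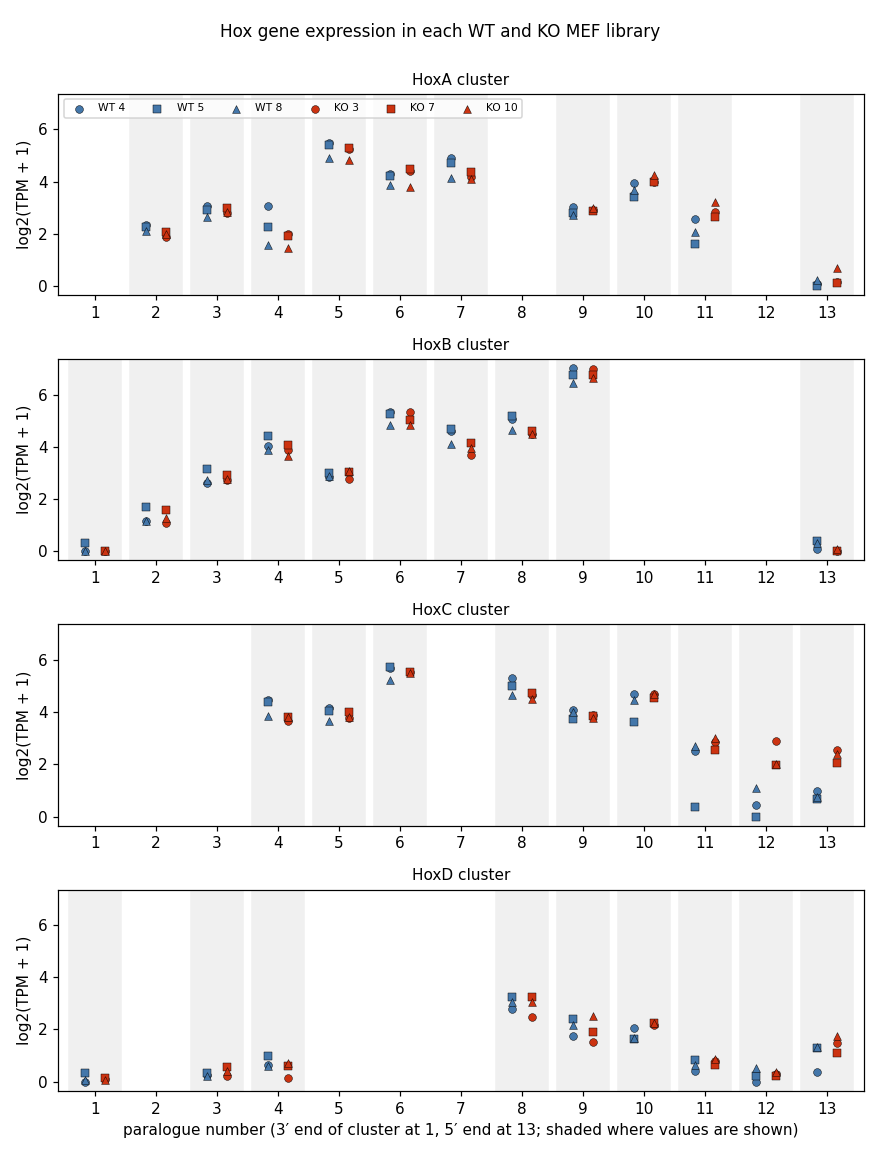
Expression of Hox genes as log2(TPM + 1) in each library, by cluster (panels) and paralogue number (horizontal axis), with WT in blue and KO in red. The highest members were Hoxa5, Hoxb9, Hoxc6 and Hoxd8, and the groups stood apart most at Hoxc12 and Hoxc13.

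The MEFs expressed genes of all 4 clusters. Hox genes together held 507 ± 80.6 TPM in WT and 484 ± 24.7 TPM in KO (SD, n = 3). The HoxB cluster supplied 41.2% to 46.2% of this sum across the 6 libraries, HoxC 27.3% to 31.6%, HoxA 22.3% to 24.6% and HoxD 2.22% to 4.42%. The ratio of the KO to the WT mean was 0.961 for HoxA, 0.924 for HoxB, 0.983 for HoxC and 1.07 for HoxD. In each cluster the range of the 3 KO libraries overlapped that of the 3 WT libraries, so the amount of Hox RNA per cluster did not differ beyond the spread. Without the highest member of each cluster, the ratios were 0.992, 0.826, 0.993 and 1.18 in the same order.

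Hoxb9, a gene of the thoracic region, was the highest Hox gene in every library, at 127.7, 107.4 and 85.8 TPM in WT and 125.4, 107.3 and 98.4 TPM in KO. It alone made up 20.5% to 25.0% of all Hox TPM, and its groups overlapped (log2 fold change 0.06). The highest HoxC member was Hoxc6, at 50.2, 52.2 and 36.9 TPM in WT and 44.7, 44.8 and 44.6 TPM in KO. The KO libraries of Hoxc6 were close to each other and lay inside the WT range. Hoxa5, known for its role in the lung and the neck region, led HoxA with 43.3, 41.7 and 29.3 TPM in WT and 36.5, 38.5 and 27.4 TPM in KO. Hoxd8 led HoxD at a lower level, with 5.89, 8.56 and 7.34 TPM in WT and 4.61, 8.46 and 7.27 TPM in KO. For Hoxa5 and Hoxd8 the groups overlapped too. Hoxc6 and Hoxa5 followed Hoxb9 in the order of mean levels, and Hoxc6 was above Hoxa5 in each of the 6 libraries, though the ranges of both genes over the libraries overlapped.

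Below these leaders, the levels did not follow gene order evenly. In HoxA, the WT means of Hoxa6, Hoxa7 and Hoxa10 were 16.5, 23.5 and 11.9 TPM. Those of Hoxa2, Hoxa3, Hoxa4, Hoxa9 and Hoxa11 lay between 3.38 and 6.43 TPM, and Hoxa13 stayed at or under 0.634 TPM in every library. In HoxB, Hoxb4, Hoxb6, Hoxb7 and Hoxb8 had WT means between 16.3 and 34.6 TPM. Hoxb3 and Hoxb5 were at 6.22 and 6.51 TPM, Hoxb2 was at 1.56 TPM, and Hoxb1 and Hoxb13 stayed at or under 0.310 TPM in every library. In HoxC, the members from Hoxc4 to Hoxc10 had WT means between 14.3 and 46.5 TPM, and the level then dropped to 3.51 TPM at Hoxc11, 0.495 TPM at Hoxc12 and 0.747 TPM at Hoxc13. In HoxD, Hoxd8, Hoxd9, Hoxd10 and Hoxd13 had WT means between 1.07 and 7.26 TPM, while Hoxd1, Hoxd3, Hoxd4, Hoxd11 and Hoxd12 stayed under 1 TPM in both group means. The 8 genes below the filter and not tested were therefore Hoxa13, Hoxb1, Hoxb13, Hoxd1, Hoxd3, Hoxd4, Hoxd11 and Hoxd12.

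The sign of the log2 fold change differed with the position in the cluster. All 8 tested members of paralogue groups 10 to 13 had a positive log2 fold change, with a median of 0.64, while 42.6% of all tested genes did. This median was 0.46 without WT 5 and 1.04 with voom. Of these 8, 6 had a WT mean of at least 1 TPM, with log2 fold changes between 0.39 and 0.95. Hoxc12 and Hoxc13 did not and passed the filter only through KO, where they were high. Their sign was thus favoured by the filter, so the 8 and their median cannot be read against all tested genes. Of the 23 tested members of groups 1 to 9, 4 were positive and 19 negative, with a median of -0.11 against -0.07 over all tested genes. This split depends on the scaling, with 9 positive and 14 negative under median-of-ratios scaling (median -0.03) and 10 and 13 under voom (median -0.02), and it ran from 2 and 21 without WT 8 to 9 and 14 without WT 5. Groups 1 to 8 held 17 negative values among 19, and the 4 genes of group 9 were split evenly with a median of -0.01. The line between groups 9 and 10 was drawn after the values had been seen, so these counts are a description and carry no test.

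**Figure D2:**
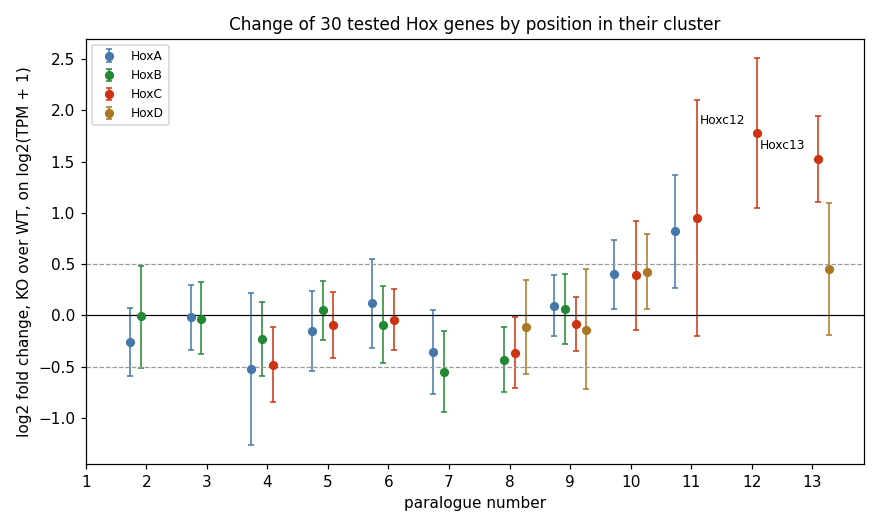
Log2 fold change of 30 of the 31 tested Hox genes (vertical axis, KO over WT on log2(TPM + 1)) by paralogue number (horizontal axis), coloured by cluster, with 95% confidence intervals and dashed lines at the fold threshold of 0.5. All 8 points from number 10 upward lie above 0, and the 2 labelled genes are those that passed both thresholds.

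Across these 31 genes, the paralogue number and the log2 fold change had a Spearman rho of 0.65 and a Pearson r of 0.70, given as a description because the genes share libraries and clusters. Without Hoxc12 and Hoxc13, which entered through their KO level, the 29 other genes gave a rho of 0.58 and an r of 0.63, a check chosen after seeing the data. With each library left out in turn, rho over the 31 genes lay between 0.59 and 0.71. The 8 genes of groups 10 to 13 remained positive under each alternative fit, scaling and left-out library that was tried.

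The 5′ members of HoxC next to the called genes were then examined by library. Hoxc11 was at 4.76, 0.282 and 5.48 TPM in WT and at 6.26, 4.85 and 7.09 TPM in KO. WT 5 was far below every other library with 5 reads, and the remaining WT libraries overlapped the KO libraries. Its log2 fold change of 0.95 (SE 0.51, adjusted p = 0.202 by limma) did not pass the test and dropped to 0.20 without WT 5. Hoxc10, a gene of the lumbar region and hindlimb, was at 24.8, 11.2 and 20.8 TPM in WT and 24.9, 22.1 and 24.9 TPM in KO. Again WT 5 was the low library, and the log2 fold change of 0.39 became 0.07 without it. Hoxc13 and Hoxc12, in contrast, kept log2 fold changes of 1.47 and 1.52 without WT 5, where Hoxc13 was the 1 Hox gene called.

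In HoxA, Hoxa11, a gene of the forearm and lower leg segment and of the uterus, had the largest log2 fold change of the tested members with all 6 libraries. Its level was 4.86, 2.04 and 3.23 TPM in WT and 6.07, 5.19 and 8.42 TPM in KO. The groups did not overlap, WT 5 was the lowest library and KO 10 the highest. The log2 fold change was 0.82 (SE 0.24, adjusted p = 0.0333 by limma), past a threshold of 0.05 but not of 0.005, and it was 0.58 without WT 5. Over the 10 other settings its adjusted p ran from 0.00798 to 0.114. Hoxa11 shares 800 exon bases with the antisense gene Hoxa11os, whose row was at or under 0.302 TPM. Hoxa10 was at 14.3, 9.55 and 11.7 TPM in WT and 14.9, 14.7 and 17.9 TPM in KO, without overlap and with a log2 fold change of 0.40 (adjusted p = 0.0792). At 0.05 it was called with voom (0.53, adjusted p = 0.0216) and without WT 4 (0.54, adjusted p = 0.0239 by limma). With median-of-ratios scaling it missed by its size (0.48, adjusted p = 0.0426 by limma), and it was 0.27 without WT 5. In the main limma test, the Hox genes called at 0.05 were Hoxa11, Hoxc12 and Hoxc13 higher and Hoxb7 lower. Over all tested genes, 4.69% were higher and 16.6% lower at that threshold.

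In HoxD, Hoxd13, which shapes the digits, and Hoxd10 had the largest log2 fold changes of the tested members. Hoxd13 was at 0.298, 1.42 and 1.49 TPM in WT and 1.77, 1.16 and 2.35 TPM in KO. Here WT 4 was the low library, and the groups overlapped (log2 fold change 0.45, adjusted p = 0.274 by limma). Without WT 4 the log2 fold change was 0.15, below the 0.56 of Hoxd10. Hoxd10 was at 3.19, 2.13 and 2.21 TPM in WT and 3.56, 3.75 and 3.70 TPM in KO. Its groups did not overlap, and its log2 fold change of 0.42 did not pass the test (adjusted p = 0.0813). At the 0.05 threshold it passed with voom (0.66, adjusted p = 0.0262) and without WT 4 (0.56, adjusted p = 0.0333 by limma). With median-of-ratios scaling it missed only by its size (0.49, adjusted p = 0.0216 by limma). In the other settings its adjusted p was above 0.05. The 1 HoxB member of groups 10 to 13, Hoxb13, was below the filter and not tested. It was at 0.0559, 0.310 and 0.239 TPM in WT and at 0, 0 and 0.0508 TPM in KO, from 12 and 1 reads in all, where the 0 reads of KO 3 and KO 7 allow up to 0.187 and 0.140 TPM. With 1 read each in WT 4 and KO 10, these counts do not set a direction for Hoxb13. Hoxa13 gave 5 reads over the WT libraries and 18 over the KO libraries, 14 of the latter in KO 10. Hoxd11 and Hoxd12 were at or under 0.824 TPM in every library.

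In all, 5 of the 31 tested Hox genes had all KO libraries above all WT libraries (Hoxa10, Hoxa11, Hoxc12, Hoxc13 and Hoxd10), and 3 had all KO libraries below (Hoxa2, Hoxb8 and Hoxc4). Over all tested genes the shares were 13.3% and 29.9%. Hoxc12 and Hoxc13 passed the 1 TPM filter only through KO, where they were high. They count among the 5 in part for that reason, so the 5 cannot be read against the 13.3%. The summed level of groups 10 to 13 was 53.9, 28.5 and 48.1 TPM in WT and 69.8, 58.6 and 73.4 TPM in KO, a ratio of 1.55 between the means. The groups did not overlap, and WT 5 was the lowest. The sum of groups 1 to 9 was 524.2, 495.1 and 371.3 TPM in WT and 431.9, 435.8 and 382.4 TPM in KO, which overlapped.

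**Figure D3:**
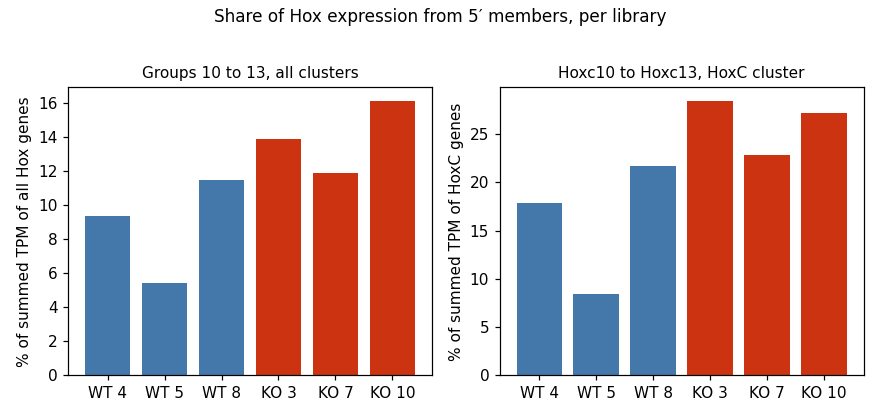
Share (%) of the summed Hox TPM from paralogue groups 10 to 13 (left) and share of the summed HoxC TPM from Hoxc10 to Hoxc13 (right), 1 bar per library, with WT in blue and KO in red. WT 5 has the lowest bar in both panels, and each KO bar is above each WT bar, by a small margin between WT 8 and KO 7.

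As a share of all Hox TPM, groups 10 to 13 made up 9.33%, 5.44% and 11.5% in WT and 13.9%, 11.9% and 16.1% in KO. Within HoxC the same share was 17.8%, 8.44% and 21.7% in WT and 28.4%, 22.8% and 27.2% in KO. WT 8 and KO 7 were close to each other in both measures, so the groups were barely separated.

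Among the 3′ and middle members, the lower values were found in several clusters. Hoxb7, a gene of the trunk, was at 23.3, 25.0 and 16.3 TPM in WT and 11.8, 16.6 and 14.4 TPM in KO. WT 8 overlapped KO 7, and the log2 fold change of -0.55 (SE 0.18) had an adjusted p of 0.0433 by limma. This 0.05 call was lost with no filter (adjusted p = 0.116) and without WT 4, WT 5, KO 3 or KO 10 (0.083 to 0.134), and by its size with median-of-ratios scaling (-0.47) and voom (-0.46). Its neighbour Hoxb8, also a gene of the trunk, was at 32.7, 34.8 and 24.0 TPM in WT and 21.4, 23.6 and 21.5 TPM in KO. The groups were separate by a small margin between WT 8 and KO 7, and the log2 fold change of -0.43 missed 0.05 (adjusted p = 0.0509). Hoxc4, the 3′ end of HoxC, was at 21.1, 19.6 and 13.5 TPM in WT and 11.5, 13.1 and 12.9 TPM in KO, with a log2 fold change of -0.48 (adjusted p = 0.0538). Hoxa4 had a value of -0.52 with overlapping groups (adjusted p = 0.274). It ran from -0.13 without WT 4 to -0.88 without WT 8, where it passed 0.05 (adjusted p = 0.0451 by limma). Hoxa2, a gene of the second branchial arch, was separate between the groups at -0.26 (adjusted p = 0.215), and Hoxa7 and Hoxc8 were at -0.36 and -0.37. These were -0.20 and -0.22 without WT 4, and -0.58 (adjusted p = 0.0147 by limma) and -0.53 (0.0218) without WT 8. Without WT 8, Hoxb8 and Hoxc4 also passed 0.05, at -0.58 (adjusted p = 0.00851 by limma) and -0.66 (0.00732), and Hoxb7 was at -0.73 (0.0109). Another 15 tested members of groups 1 to 9 lay between -0.23 and 0.12.

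The WT libraries differed among themselves in a way that touches these results. WT 5 was the lowest WT library for 7 of the 8 tested genes of groups 10 to 13, and WT 8 was the lowest for 18 of the 23 tested genes of groups 1 to 9. Among the KO libraries, KO 7 was the lowest for 7 of the same 8 genes and the highest for 16 of the 23. Genes that mark limb origin were therefore set beside the Hox genes. Pitx1, a hindlimb factor, was at 6.78, 1.85 and 10.9 TPM in WT and 9.47, 9.40 and 10.7 TPM in KO. Tbx4, also of the hindlimb, was at 2.98, 1.14 and 3.94 TPM in WT and 3.76, 4.16 and 4.51 TPM in KO. Tbx5, its forelimb counterpart, was at 0.845, 6.17 and 2.77 TPM in WT and 2.91, 3.44 and 4.98 TPM in KO. WT 5 was thus the library with the lowest Pitx1, Tbx4, Hoxc10 and Hoxc11 and the highest Tbx5, and the 3 KO libraries were closer to each other for Pitx1 and Tbx4 than the WT libraries were. Pitx1, Tbx4 and Tbx5 were named after their values had been seen.

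**Figure D4:**
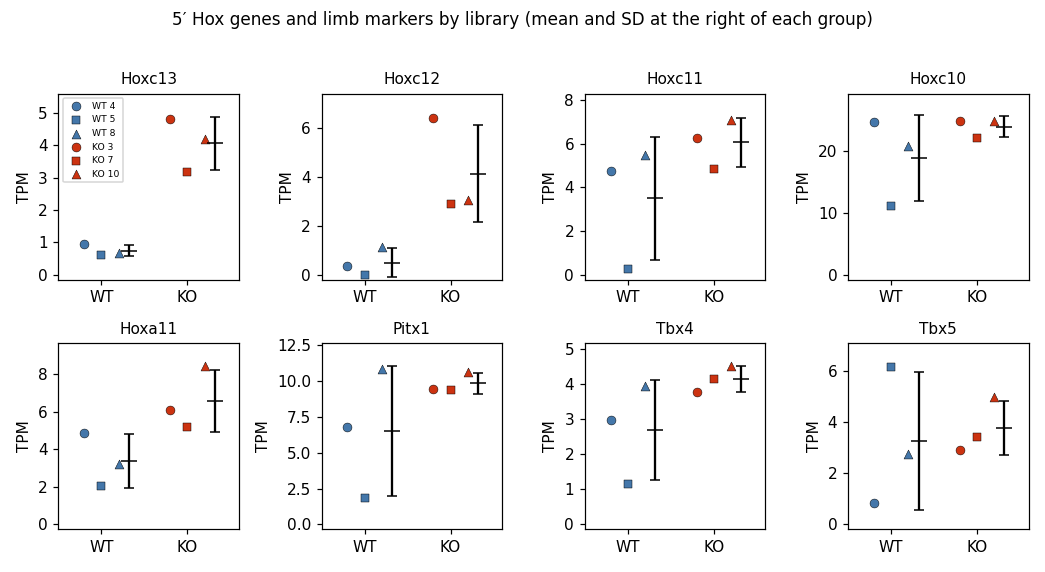
Levels in TPM of 5 Hox genes and 3 limb markers in each library, with WT in blue and KO in red and the mean with SD to the right of each group (n = 3). WT 5 is the lowest library for Hoxc11, Hoxc10, Pitx1 and Tbx4 and the highest for Tbx5, whereas all WT libraries are low for Hoxc13 and Hoxc12.

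Of the 33 listed genes that mark limb, head or trunk origin, 32 had a row, 24 were tested and 0 passed both thresholds in limma. At unadjusted p below 0.05, 4 were higher and 1 lower, and voom called 1 higher (Tbx3). Over all tested genes these shares were 1.64% higher and 9.03% lower in limma, 12.2% and 27.2% at unadjusted p below 0.05, and 4.34% and 12.2% with voom. The log2 fold change was positive in 17 of the 24 and negative in 7, while 42.6% of all tested genes were positive. The median was 0.15 against -0.07 over all tested genes. The gene of this list with the highest level was Tbx15, at 36.0 TPM in WT and 38.7 TPM in KO. Differences between embryos or dissections in the part of the body sampled were not tested.

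Markers of other cell types were compared in the same way. The 10 fibroblast markers summed to between 7250 and 11290 TPM in WT and between 8289 and 10922 TPM in KO, and 0 of 10 passed the thresholds in limma, with 2 higher at unadjusted p below 0.05 and 0 called by voom, beside the same shares of all tested genes. The macrophage list of 8 genes summed to between 34.7 and 39.7 TPM in WT and between 73.5 and 146 TPM in KO. Of its 6 tested genes, 5 had all KO libraries above all WT libraries and Lyz2 was called higher (log2 fold change 1.59, adjusted p = 0.00141; not called with no filter), beside 13.3% and 1.64% of all tested genes. Adgre1, 1 of the 5, passed the 1 TPM filter only through KO. Csf1r and Adgre1 were at 1.09 to 1.68 and 0.343 to 1.14 TPM in WT and at 2.26 to 4.77 and 1.61 to 2.42 TPM in KO, and Ptprc and Itgam stayed at or under 0.379 TPM. The part of macrophage RNA in the Hox results was not tested. Epithelial markers summed to at most 0.840 TPM and muscle markers to at most 0.994 TPM in every library, and the epithelial sum was higher in each KO library than in each WT library. Endothelial markers summed to between 2.23 and 5.57 TPM, neural markers to between 56.2 and 97.0 TPM and cartilage markers to between 48.7 and 117 TPM, and the groups overlapped in these 3 sums. In limma 0 genes of these lists were called. Sox9 of the cartilage list was at 15.8 to 19.6 TPM in WT and 24.4 to 27.8 TPM in KO (log2 fold change 0.54, adjusted p = 0.00708), and it was called higher by voom and with median-of-ratios scaling. Kdr of the endothelial list was at 0.745 to 1.52 TPM in WT and 1.72 to 2.10 TPM in KO (log2 fold change 0.54, adjusted p = 0.0768), and it was called higher by voom.

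The Hox clusters also hold microRNA genes, and miR-196 and miR-10 are known to act on Hox transcripts. Mature sequences are shown 5′ to 3′ from RefSeq (GRCm38.p6), with the seed, bases 2 to 8, in capitals, because the seed is what the search of the Hox transcripts used. The members of each family share their seed.
miR-196a-5p: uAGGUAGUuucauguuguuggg
miR-196b-5p: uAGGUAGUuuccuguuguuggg
miR-10a-5p: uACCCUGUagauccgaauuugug
miR-10b-5p: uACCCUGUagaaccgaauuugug
The mature sequences lie at chr11:96265187-96265208 (Mir196a-1) and chr11:96317186-96317208 (Mir10a) in HoxB, at chr15:102973365-102973386 (Mir196a-2) in HoxC, at chr6:52230129-52230150 (Mir196b) in HoxA and at chr2:74726074-74726096 (Mir10b) in HoxD. The row of the Mir196a-1 hairpin was at 66.5, 64.8 and 55.8 TPM in WT and 84.9, 75.9 and 67.0 TPM in KO. The groups were separate by a small margin, and the log2 fold change of 0.28 did not pass the test (adjusted p = 0.113). Reads in such a row come from longer transcripts that cover the hairpin and do not measure the mature microRNA. The row of Mir10a overlapped between the groups (log2 fold change 0.48, adjusted p = 0.225). That of Mir196a-2 was at 4.36, 0 and 0 TPM in WT and 0, 1.21 and 0 TPM in KO. Its groups overlapped too (log2 fold change -0.42, adjusted p = 0.644 by limma). With 0 TPM in most libraries, these values do not set a direction for Mir196a-2.

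The complement of the miR-196 seed, ACTACCT on the transcript strand, was found after the stop codon of 9 Hox genes, among them Hoxa4, Hoxa5, Hoxa7, Hoxa9, Hoxb1, Hoxb6, Hoxb7 and Hoxc8. It was present in 7.8% of 11801 tested coding genes. The complement of the miR-10 seed, ACAGGGT, was found in 4 Hox genes, among them Hoxa3, Hoxb3 and Hoxd1, and in 15.1% of coding genes. Hoxa7 held 4 matches of the miR-196 seed and Hoxc8 held 2. Hoxb8 has no strict match but has the window most complementary to miR-196a among all Hox genes, with 21 of 22 bases, whereas no other Hox gene exceeded 15. The sites below run 5′ to 3′ on the transcript strand, with bases complementary to miR-196a in capitals, and lie at chr11:96284888-96284909 (Hoxb8, plus strand), chr11:96289784-96289805 (Hoxb7, plus strand) and chr6:52215210-52215231 (Hoxa7, minus strand).
Hoxb8 site: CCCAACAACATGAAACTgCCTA
Hoxb7 site: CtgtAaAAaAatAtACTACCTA
Hoxa7 site: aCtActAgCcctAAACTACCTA
The Hoxb7 and Hoxa7 sites were complementary at 14 of 22 bases. Of the 8 tested genes with the miR-196 match, 7 had a negative log2 fold change, with a median of -0.37, and the 23 tested genes without it had a median of -0.01 with 12 negative. All of the genes with a match belong to groups 1 to 9, and within these groups the 15 tested genes without a match had a median of -0.08 with 12 negative. Under voom the counts were 7 of 8 and 6 of 15, and under median-of-ratios scaling 6 of 8 and 8 of 15. The medians also depend on single libraries. Without WT 4 they were -0.17 with a match and -0.10 without, and without WT 8 they were -0.56 and -0.11. Without WT 5 the genes without a match were 8 positive and 7 negative. This search was made after the fold changes were known and is a description. A match of letters is not a site shown to be used, and the level of the mature microRNAs was not measured.

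The partners and regulators of Hox genes were then read out of the same fit. TALE homeodomain proteins bind DNA together with Hox proteins. Of 9 such cofactor genes, all tested, 0 were higher and 1 lower, where 9.03% of all tested genes were lower. At unadjusted p below 0.05, 0 were higher and 2 lower, where 12.2% and 27.2% of all tested genes were. With voom, 0 were called higher and 1 lower, where 4.34% and 12.2% of all tested genes were. The lower gene was Meis3, at 15.0, 19.1 and 17.1 TPM in WT and 7.24, 8.69 and 9.04 TPM in KO (log2 fold change -0.95, adjusted p = 0.00100 by limma). All KO libraries were below all WT libraries. The median log2 fold change of the list was -0.22.

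Polycomb proteins keep Hox genes silent by modifying histones. Of 31 Polycomb genes, 30 were tested, 3 were lower and 0 higher in limma, which for the lower genes is close to the 9.03% of all tested genes and no result about this list. At unadjusted p below 0.05, 1 was higher and 9 lower, beside 12.2% and 27.2% of all tested genes. The voom method called 1 higher and 4 lower, beside 4.34% and 12.2% of all tested genes. Phf19, an accessory subunit that recruits the Polycomb repressive complex to chromatin, was at 6.86, 5.75 and 5.11 TPM in WT and 0.928, 1.82 and 1.89 TPM in KO (log2 fold change -1.45, adjusted p = 0.000862). Ezh1, a histone methyltransferase of the complex, was at 4.83, 4.86 and 4.68 TPM in WT and 1.83, 2.72 and 2.27 TPM in KO (log2 fold change -0.83, adjusted p = 0.00365). Cbx6, a chromodomain protein, was at 19.4, 23.7 and 19.3 TPM in WT and 9.02, 13.7 and 11.9 TPM in KO (log2 fold change -0.81, adjusted p = 0.00469). All 3 genes were separate between the groups. With each library left out in turn, 1 or 2 genes of the list were called. Rbbp7, a histone-binding protein, had the highest level of the list at 286.3 ± 28.6 TPM in WT and 240.6 ± 27.3 TPM in KO and did not pass (adjusted p = 0.145). The median of the list was -0.08, near the -0.07 of all tested genes.

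Retinoic acid and the Cdx factors set Hox expression in the embryo. Of 21 such genes, Cdx1, Cdx2 and Cdx4 had no row, 13 were tested, 1 was higher and 0 lower in limma (1.64% and 9.03% of all tested genes). At unadjusted p below 0.05, 2 were higher and 0 lower (12.2% and 27.2% of all tested genes). With voom, 1 was called higher and 0 lower (4.34% and 12.2%). The higher gene was Crabp2, a carrier of retinoic acid inside the cell, at 11.2, 15.3 and 14.9 TPM in WT and 23.5, 28.3 and 33.6 TPM in KO (log2 fold change 0.99, adjusted p = 0.00202). Its groups were well separated, though no gene of the list was called without KO 7 or without KO 10. Crabp1, its relative with the highest level, was at 555 ± 171.6 TPM in WT and 622.4 ± 117 TPM in KO, with overlap.

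Other genes in and around the clusters were read out last. Of 31 other rows between the outermost Hox genes, 17 were tested, and 1 was called higher and 0 lower (1.64% and 9.03% of all tested genes). At unadjusted p below 0.05, 4 were higher and 0 lower (12.2% and 27.2% of all tested genes). With voom, 1 was called higher and 0 lower (4.34% and 12.2%). Their log2 fold change was positive in 14 and negative in 3, with a median of 0.23. Over all tested genes 42.6% were positive and the median was -0.07. Gm27535, with the highest log2 fold change of these rows (1.04), passed the 1 TPM filter only through KO. The called row was the pseudogene Gm11539, at 3.10, 2.25 and 1.89 TPM in WT and 5.18, 6.12 and 6.03 TPM in KO (log2 fold change 1.00, adjusted p = 0.00229). Mir196a-1 had the highest level of these rows. Hotair, a long noncoding RNA of the HoxC cluster that lies between Hoxc12 and Hoxc11, was at 0.123, 0 and 0.105 TPM in WT and 0.480, 0.154 and 0.447 TPM in KO. All KO libraries were above all WT libraries, but by a small margin between WT 4 (0.123 TPM) and KO 7 (0.154 TPM). The level was below the filter and was not tested, and these values do not set a direction for Hotair. The gene was named after its values had been seen.

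Of 43 coding genes within 500 kb of a cluster, 31 were tested, 4 were lower and 0 higher in limma, beside 9.03% and 1.64% of all tested genes. At unadjusted p below 0.05, 2 were higher and 10 lower, beside 12.2% and 27.2% of all tested genes. The voom method called 1 higher and 6 lower, beside 4.34% and 12.2%. Their log2 fold change was positive in 10 and negative in 21, with a median of -0.13, beside 42.6% positive and -0.07 over all tested genes. Smug1, a DNA repair glycosylase near HoxC, was at 8.46, 8.95 and 7.54 TPM in WT and 2.75, 3.60 and 3.81 TPM in KO (log2 fold change -1.09, adjusted p = 0.000797). Snf8, a subunit of the endosomal sorting machinery near HoxB, was at 28.4, 31.1 and 27.9 TPM in WT and 14.0, 18.2 and 16.6 TPM in KO (log2 fold change -0.81, adjusted p = 0.00138). The other lower genes were Prr13 at -0.73 and Calcoco1, an autophagy receptor, at -0.64, both near HoxC. In all of these genes the groups did not overlap. Itga5, a fibronectin receptor subunit near HoxC, had the highest level at 801.5 ± 56.1 TPM in WT and 680 ± 48.0 TPM in KO and did not pass (adjusted p = 0.113).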

How the data were processed

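RNA sequencing of 6 MEF libraries, 3 WT and 3 KO, was analysed from the table the authors deposited as TPM, whose 6 columns each sum to the same total. Per the methods, reads were aligned to mm10 with STAR and tested with DESeq2, and the submitters' processing notes list Bowtie 0.12.2. The counting program is not given in the sources used here. The authors also deposited log2 fold changes and adjusted p-values, which were not used. All 26898 identifiers matched GENCODE M21, the source of positions, exon lengths and transcripts. Multiplying TPM by exon length gave whole reads for 100.0% of the values under the limit checked (17832 to 18650 values per sample, tolerance 0.05). These recovered reads give the depth, and intervals from them cover counting error only. Samples were grouped by their titles. The cells were harvested at passage 3 on a C57BL/6 background.

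The 14799 genes that reached a mean of 1 TPM in either group were tested with limma 3.58.1 (variance trend, R 4.3.3) on log2(TPM + 1) with a 2-group design and Benjamini-Hochberg adjustment over all tested genes. A gene was called where the adjusted p-value was below 0.005 and the log2 fold change exceeded 0.5 in size, as in the study. The deposited unit is TPM, so the main test was made on the log scale, and the recovered reads were tested only as an alternative, with voom. DESeq2 was not run. The fitting script was tested on simulated data. Alternatives were no filter, a pseudocount of 0.1, median-of-ratios scaling, voom on recovered reads, a threshold of 0.05, cluster sums without the highest member, and leaving out each library. An overlap of groups was read from the single libraries. The Hox genes and the other gene lists were chosen with earlier results of these data known. Values in every sample are given for the called Hox genes, for the highest member and the largest change of each cluster, and for others where named. From other lists, called genes and the gene of highest level are named. Values of 1 Hox gene and 1 cofactor gene are not reported here singly and are left out of the plots.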

Additional observations from a re-analysis of the deposited data

How the results depend on the processing

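No paired analysis was made, as no replicate number occurs in both groups (4, 5 and 8 in WT, 3, 7 and 10 in KO). The labels name no litter or dissection, so whether WT and KO libraries share one is not known. The number of Hox genes called higher was 2, and it was 0 with no filter, 1 with a pseudocount of 0.1, 1 with median-of-ratios scaling, 1 with voom and 1 to 2 when a library was left out. The number called lower was 0, and 1 with an adjusted p threshold of 0.05. The number of all genes called was 1579, and 341 with no filter, 2441 with voom, 3147 at 0.05 and 758 to 1081 when a library was left out. Among other lists, no filter gave 0 cofactors, 0 Polycomb genes and 0 retinoic acid genes. Polycomb calls were 5 with median-of-ratios scaling, 5 with voom, 6 at 0.05 and 1 to 2 when a library was left out, and retinoic acid calls were 0 to 1. Position markers gave 1 call with median-of-ratios scaling and 1 with voom. Over all tested genes, the median log2 fold change was -0.069, 0.008 with median-of-ratios scaling and 0.028 with voom, and all genes called higher and lower were 242 and 1337, 442 and 1498, and 642 and 1799.

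Small log2 fold changes turned sign. With median-of-ratios scaling these were Hoxa3 0.06, Hoxb2 0.04, Hoxb3 0.05, Hoxb6 0.0015 and Hoxc6 0.05, and with voom Hoxa3 0.08, Hoxb2 0.11, Hoxb3 0.07, Hoxc5 0.0022, Hoxc6 0.05 and Hoxd8 0.01. When a library was left out, the ranges that crossed 0 were -0.13 to 0.08 for Hoxa3, -0.01 to 0.33 for Hoxa6, -0.14 to 0.16 for Hoxb2, -0.13 to 0.13 for Hoxb3, -0.01 to 0.14 for Hoxb5, -0.24 to 0.03 for Hoxb6, -0.09 to 0.19 for Hoxb9, -0.24 to 0.01 for Hoxc5, -0.19 to 0.05 for Hoxc6, -0.27 to 0.11 for Hoxd8 and -0.40 to 0.09 for Hoxd9. The cause was not tested, apart from the fewer genes or samples that some settings hold. The ratio of cluster sums lay between 0.87 and 1.07 for HoxA, 0.841 and 0.982 for HoxB, 0.924 and 1.07 for HoxC and 0.969 and 1.19 for HoxD when a library was left out. Hoxa13, Hoxb1, Hoxb13 and Hoxd1 had at most 23 reads over all 6 libraries, which limits what their levels can show.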
